A study of Mus musculus with 4 samples.

Results

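The genes described here break down haem and store, move and take up iron, the work by which spleen recovers iron from worn-out red cells. They were read in spleens of mice without the transcription factor Nrf2 and of wild-type littermates. The 10 genes were Hmox1, Hmox2, Blvrb, Fth1, Ftl1, Slc40a1, Slc11a1, Slc11a2, Tfrc and Trf, chosen for their function, and the members were all probe sets that the platform annotation assigns to exactly 1 of them. This gave 12 probe sets for 6 genes, among 12425 probe sets and 8251 named genes considered in all. Ftl1 was read by a single probe set that the annotation also assigns to the pseudogene Ftl1-ps2, so its values are given without being counted as a member. No probe set carried the symbols Blvrb, Slc40a1 or Trf, so biliverdin reductase B, the iron exporter ferroportin and transferrin were not analysed here.

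Total RNA of whole spleen was measured on 4 1-colour expression arrays, 2 from nrf2 -/- and 2 from nrf2 +/+ females, all taken at 5 months. Per the labels, this age preceded severe autoimmune disease. The parents were nrf2 +/+ animals of C57B6/SJL background and nrf2 -/- animals of C57B6/129SVJ background, whose heterozygous offspring were interbred, so both genotypes carried mixed backgrounds, and the labels name no agent. The deletion was not limited to a cell type in any label, and whether RNA of several mice was pooled for an array is not given in the labels. The p-values therefore rest on a spread between samples that may be technical.

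Splenic macrophages, chiefly those of the red pulp, engulf old red cells. Haem oxygenase opens the released haem to biliverdin, carbon monoxide and iron, and biliverdin reductase turns biliverdin into bilirubin. The iron is stored in ferritin or leaves the cell through ferroportin, binds transferrin in plasma, and enters red cell precursors through the transferrin receptor. Nrf2 is known to induce Hmox1 and both ferritin chains in many cells, and Bach1 to repress them until haem binds it.

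Among the array-wide facts that touch these genes, wild-type replicate 1 stood apart. Across tested probe sets its Pearson r with the other 3 arrays lay between 0.849 and 0.851, against 0.938 to 0.947 among those 3; these are correlations across probe sets, which are not independent replicates. Its ratio of 3' to 5' signal for the Gapdh control, which rises as RNA degrades or labelling falls short, was 88.3, against 8.07 to 34.8 in the others. For beta-actin, the other such control, that array had a ratio of 14.4, inside the range of 8.86 to 19.3 of the others, so this control did not set it apart. On both controls the 3' signal was at least 8.07-fold the 5' signal in all 4 arrays. Weak 5' signal was thus not limited to wild-type replicate 1. The targeted gene Nfe2l2, which encodes Nrf2, read 202 and 178.6 in the knockout arrays and 3537 and 6321 in the wild-type arrays (log2 difference -4.61, SE 0.47, limma adjusted p = 0.0198). Since 178.6 was raised to the floor of 185, the difference is understated, and the probe set was bright enough to test through its wild-type values. The difference stayed large in every fit that tested this probe set, from -5.03 to -3.30, while the call was lost in 4 of them. The differences in these fits were -5.03 without wild-type replicate 1 (adjusted p = 0.142), -4.19 without wild-type replicate 2 (0.0582), -3.30 with the floor at the 40th percentile (0.0730) and -4.61 with no filter on dim probe sets (0.713). Where this probe set lies relative to the deleted part is not given in the labels. B cell, T cell and macrophage genes marked the tissue as spleen: Cd79a read 10358 to 20785, Cd3e 3092 to 4252 and Csf1r 24559 to 26915 over the 4 arrays, genes chosen after their values were seen. Of the marker lists not described further, 11 of 13 B cell, 9 of 11 T cell, 7 of 9 exocrine pancreas and 2 of 2 liver probe sets measured lower in knockout, with medians of -0.48, -0.46, -1.65 and -1.53 and 0 called in each, against 3451 of 7455 lower over all tested probe sets. Wild-type replicate 1 was the highest array on 8 of the 13 B cell, 9 of the 11 T cell, 8 of the 9 pancreas and 1 of the 2 liver probe sets, against 37.3% of all tested probe sets.

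The question of the comparison was whether the loss of Nrf2 went with a different level of the haem and iron genes in spleen. No member reached the threshold. Of the 9 member probe sets bright enough to test, 4 measured higher and 5 lower in knockout, 0 had an adjusted p under 0.05 and 0 an unadjusted p under 0.05 in limma. Over all 7455 tested probe sets 0.0537% were called, and 1.74% had an unadjusted p under 0.05. The median log2 difference of the 9 was -0.05, against 0.04 over all tested probe sets. In none of the 9 were the knockout arrays both above or both below the wild-type arrays, while this was so for 26.4% of all tested probe sets. All 9 confidence intervals, each 95%, covered 0, and in 7 of the 9 the difference between genotypes was smaller than the gap between the 2 wild-type arrays. Over all tested probe sets the median size of the difference was 0.32, against 0.64 for that gap. A difference smaller than the gap was therefore not particular to the members. With standard errors of 0.40 to 0.81 on the log2 scale, differences of the size given by each interval remain possible, so these values do not show that the genotypes were alike.

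**Figure D1:**
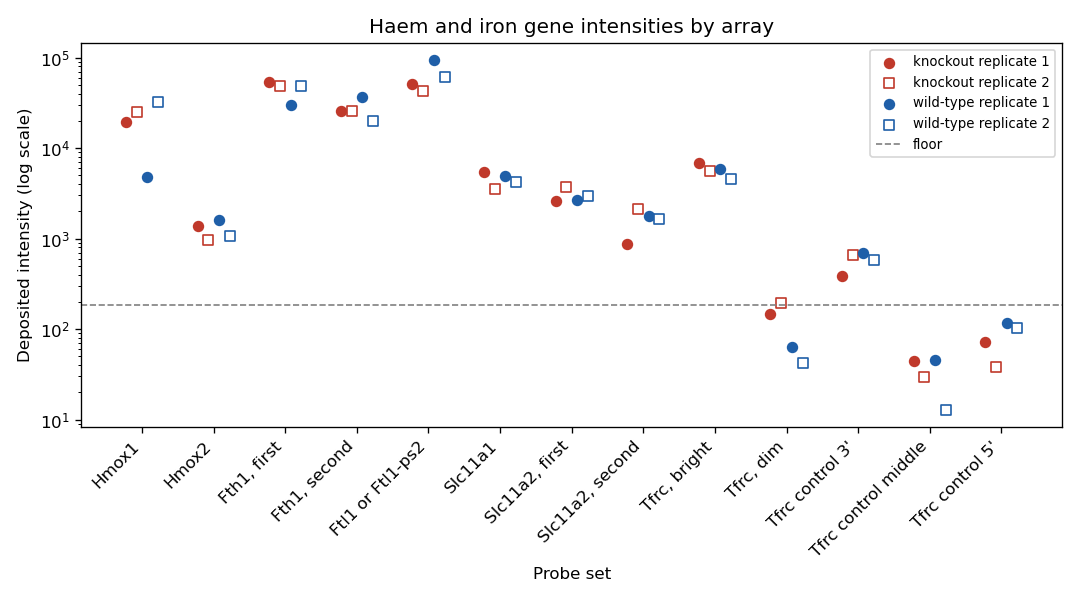
Deposited intensity (log axis) of each haem and iron probe set in each of the 4 arrays, with the floor of 185 as a dashed line; each point is 1 array, and levels of different probe sets cannot be set against each other. Hmox1 was low in wild-type replicate 1 alone, at 4840, and 3 of the 5 Tfrc probe sets lay under the floor in all arrays, with 1 exception at 193.3.

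Hmox1 encodes the inducible haem oxygenase, the rate-limiting enzyme of haem breakdown and a long-studied Nrf2 target. It read 19357 and 25098 in knockout replicates 1 and 2, 4840 in wild-type replicate 1 and 32609 in the other wild-type array. Both knockout arrays thus lay between the wild-type arrays, and wild-type replicate 1 was the array that stood apart. The log2 difference, knockout minus wild type, was 0.81 (n = 2 per group, SE 0.81, 95% interval from -1.05 to 2.67, limma adjusted p = 0.992), a 1.75-fold higher level in knockout. Its sign rested on wild-type replicate 1: the difference was -0.57 when that array was left out, and 2.19 when wild-type replicate 2 was left out, with an adjusted p of 0.0582. In that latter fit 2189 of the 7455 probe sets had an unadjusted p under 0.05, against 130 in the fit of all 4 arrays.

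Wild-type replicate 1 lay 4.0-fold below the lowest of the other 3 arrays for Hmox1, a gap reached or passed by 118 of the 7455 tested probe sets, or 1.58%. Several genes of splenic macrophages, which hold much of the Hmox1 of spleen, shared this low reading and others did not. Adgre1, the classical surface marker of mouse macrophages, read 2350 and 2964 in the knockout arrays, 123.5 in wild-type replicate 1 and 3644 in the other wild-type array. Vcam1, an adhesion molecule of red pulp macrophages and of stroma, was lowest in wild-type replicate 1 on all 3 of its probe sets, by 2.14-fold to 2.84-fold below the next array. By contrast Csf1r, the receptor for macrophage growth factor, read 26915 in wild-type replicate 1 against 24559 to 26459 in the others. Spic, the factor that red pulp macrophages need, read 16190 and 16623 in the knockout arrays and 14314 and 12660 in the wild-type arrays, and for Cd68 and Lyz2 wild-type replicate 1 differed from the mean of the other arrays by -0.16 and -0.26 on the log2 scale. Vcam1, Csf1r, Spic, Cd68 and Lyz2 were chosen after their values were seen.

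Over the whole list of 17 tested macrophage marker probe sets, 7 were lowest in wild-type replicate 1 (41.2%, against 39.2% of all tested probe sets). That array was the highest on 5 of the 17 (29.4%, against 37.3%). On 4 it lay more than 2-fold below the lowest other array (23.5%, against 11.8%). These 4 were the Adgre1 probe set and those of Vcam1, so most of them came from a single gene. The median log2 difference of the 17 was 0.07. Over all probe sets of the list, tested or not (15 genes on the array, 14 tested), the summed intensity was 250912 and 196252 in knockout and 206138 and 216437 in wild-type spleen. Such a sum is weighted to the brightest probe sets, so it does not speak for the list as a whole. In RNA of whole spleen, fewer cells of a type and less RNA per cell cannot be told apart. The part of macrophage content and of RNA quality in the Hmox1 reading of wild-type replicate 1 was not tested.

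**Figure D2:**
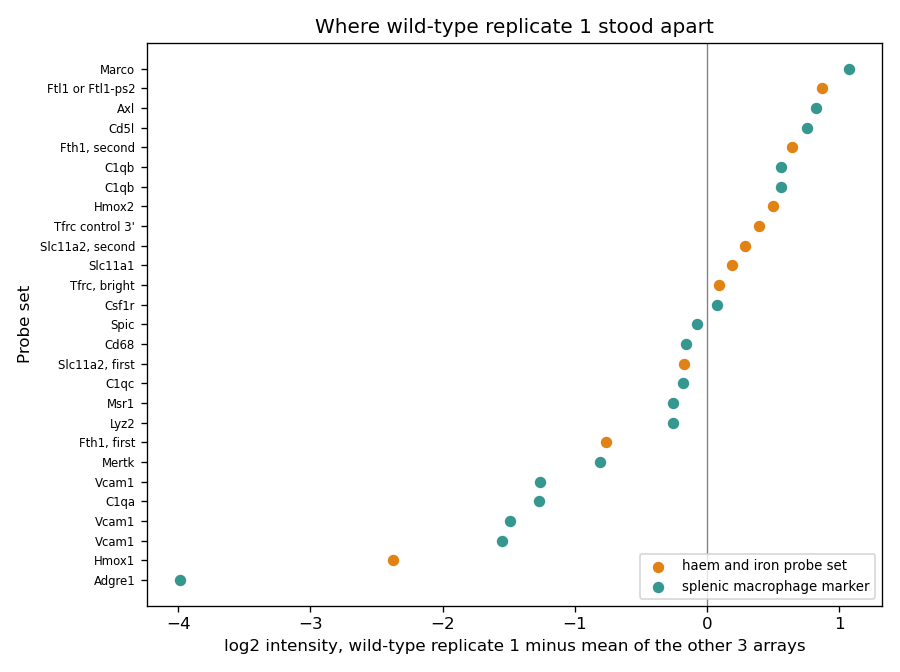
Log2 intensity of wild-type replicate 1 minus the mean of the other 3 arrays (horizontal axis) for the tested haem and iron probe sets (orange), with the probe set of Ftl1 or Ftl1-ps2, and for the splenic macrophage markers (green); each point is 1 probe set, sorted by value. Hmox1, at -2.38, lay next to Adgre1, at -3.99 with its low value raised to the floor, and far below the other haem and iron probe sets, the lowest of which was the first Fth1 probe set at -0.76.

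The genes whose profile over the 4 arrays was nearest to that of Hmox1, by Euclidean distance of mean-centred log2 intensity among tested probe sets, were Morf4l2, a chromatin-associated protein gene, on 2 probe sets and Rnf145, a ubiquitin ligase gene. Their distances were 0.14 and 0.19 for Morf4l2 and 0.18 for Rnf145. The nearest Morf4l2 probe set read 3599 and 4258 in the knockout arrays, 798.5 in wild-type replicate 1 and 5383 in the other wild-type array. Rnf145 read 5266 and 7349 in the knockout arrays, 1315 in wild-type replicate 1 and 7992 in the other wild-type array. A likeness over 4 arrays rests on few values.

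Hmox2 encodes the constitutive haem oxygenase, which is made without need of an inducing signal. It read 1380 and 959 in the knockout arrays and 1591 and 1079 in the wild-type arrays. These ranges overlapped, and within each genotype replicate 1 was the higher array. The log2 difference was -0.19 (SE 0.44, 95% confidence interval -1.21 to 0.84, adjusted p = 0.992). The interval of the Hmox2 difference was narrower than that of Hmox1, for which wild-type replicate 1 minus replicate 2 was -2.75 on the log2 scale, against 0.56 for Hmox2.

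Ferritin, the iron store, is a shell of heavy and light chains. The heavy chain gene Fth1, whose product oxidises iron for storage, was read by 2 probe sets that differed in what they showed. The first read 53531 and 48330 in the knockout arrays and 29551 and 48591 in the wild-type arrays (log2 difference 0.42, SE 0.46, 95% confidence interval -0.63 to 1.48, adjusted p = 0.992). The second read 25918 and 25455 in the knockout arrays and 36749 and 19892 in the wild-type arrays (log2 difference -0.07, SE 0.46, 95% confidence interval -1.15 to 0.9999, adjusted p = 0.997).

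The knockout arrays were close to each other on both Fth1 probe sets, with gaps of 0.15 and 0.03 on the log2 scale. Wild-type replicate 1 was the lowest array on the first and the highest on the second, so the 2 probe sets disagreed in the direction of that array. Without it the differences were 0.07 and 0.37. The sign of the second also turned with quantile normalization, to 0.08. The name of the second carries a suffix that marks possible cross-hybridisation, and Fth1 has processed pseudogenes, so this value is uncertain.

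The probe set assigned to the light chain gene Ftl1 and to Ftl1-ps2 read 50453 and 42582 in the knockout arrays and 92947 and 61095 in the wild-type arrays. Both knockout arrays lay below both wild-type arrays, as was so for 12.2% of all tested probe sets. The log2 difference was -0.70 (SE 0.46, 95% confidence interval -1.75 to 0.35, adjusted p = 0.992), a 1.63-fold lower level. It was -0.40 without wild-type replicate 1 and ranged to -1.004 over the fits with 1 array left out. Since the genotypes did not overlap, the sign could not change in those fits, so its constancy adds nothing. The gene and its pseudogene cannot be told apart by this probe set.

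**Figure D3:**
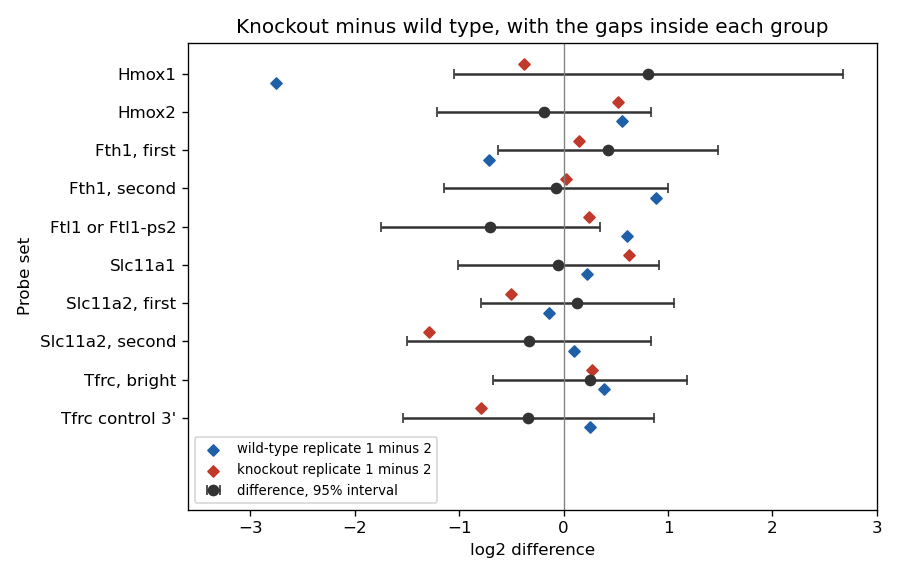
Log2 difference, knockout minus wild type, with its 95% confidence interval (black) for each tested haem and iron probe set and the probe set of Ftl1 or Ftl1-ps2, beside the gap between the 2 wild-type arrays (blue) and between the 2 knockout arrays (red). All intervals cover 0, and the wild-type gap of Hmox1, at -2.75, is the largest gap plotted.

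Slc11a1 and Slc11a2 encode proton-coupled carriers of divalent metal. Slc11a1, also called Nramp1, sits in the phagosome membrane of macrophages and neutrophils and moves recovered iron, and inbred strains are known to carry different alleles of it. The alleles of these animals are not given in the labels. It read 5404 and 3503 in the knockout arrays and 4882 and 4173 in the wild-type arrays. Both wild-type values lay between the knockout values, and the log2 difference of -0.05 was the smallest of the 9 members (SE 0.42, 95% confidence interval -1.02 to 0.91, adjusted p = 0.997).

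Slc11a2, also called DMT1, carries iron out of endosomes after transferrin uptake and into intestinal cells. Its first probe set read 2595 and 3679 in the knockout arrays and 2694 and 2958 in the wild-type arrays (log2 difference 0.13, SE 0.40, adjusted p = 0.992). Its second read 871 and 2124 in the knockout arrays and 1767 and 1653 in the wild-type arrays (log2 difference -0.33, SE 0.51, adjusted p = 0.992). The 95% confidence intervals were -0.80 to 1.06 and -1.498 to 0.84. On both the wild-type arrays lay between the knockout arrays, and knockout replicate 1 was lowest. Without knockout replicate 1 the second gave 0.31, the opposite sign.

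Tfrc encodes transferrin receptor 1, which brings in transferrin-bound iron and is abundant on red cell precursors and dividing cells. It was read by 5 probe sets, of which 3 are array controls placed at the 3' end, the middle and the 5' end of the transcript. The bright probe set read 6790 and 5618 in the knockout arrays and 5945 and 4538 in the wild-type arrays (log2 difference 0.25, SE 0.40, 95% confidence interval -0.68 to 1.18, adjusted p = 0.992). The genotypes overlapped, with the highest value in knockout replicate 1 and the lowest in wild-type replicate 2. The name of this bright probe set carries a suffix that was also counted as possible cross-hybridisation, so its value is uncertain. The 3' control read 384.7 and 666.8 in the knockout arrays and 697.5 and 586.6 in the wild-type arrays (log2 difference -0.34, SE 0.52, 95% confidence interval -1.54 to 0.87, adjusted p = 0.992). Here knockout replicate 1 was the lowest array, so the 2 tested Tfrc probe sets placed that array at opposite ends.

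The 3 remaining Tfrc probe sets were too dim to test. The dim probe set outside the controls read 146.1 and 193.3 in knockout and 63.7 and 42.4 in wild-type spleen. The middle control read 12.9 to 45.2 and the 5' control 38.1 to 115.7 over the 4 arrays. All of these values except 193.3 lay below the floor of 185, under which values have no order. The ratio of the 3' to the 5' Tfrc control was 5.37 and 17.5 in knockout and 6.03 and 5.67 in wild-type spleen, with its denominator under the floor in each array, so it gives no firm measure of RNA quality.

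Genes of red cell precursors, in which Tfrc and Slc11a2 are known to be abundant, differed between the knockout arrays. Of 20 tested erythroid marker probe sets, 19 were lowest in knockout replicate 1, against 18.7% of all tested probe sets and 3 of the 9 members. These 3 were both Slc11a2 probe sets and the 3' control of Tfrc. The first Slc11a2 probe set lay only narrowly lower there, at 2595 against 2694 in wild-type replicate 1, the next array. The bright Tfrc probe set was highest in knockout replicate 1, at 6790. The erythroid list had a median gap of -2.23 on the log2 scale between knockout replicates 1 and 2, and a median difference between genotypes of -0.52, with 0 of 20 called. In knockout 19 of its probe sets measured lower and 1 higher, against 3451 of 7455 lower over all tested probe sets. The summed intensity of all its probe sets, tested or not, was 205381 and 481955 in the knockout arrays and 583790 and 373996 in the wild-type arrays. This sum, too, is weighted to the brightest probe sets. Smallest in p among these markers were Urod, Slc4a1 and Rhd. Urod, of haem synthesis, read 1762 and 4426 in the knockout arrays and 16356 and 7061 in the wild-type arrays. What part erythroid content had in the Tfrc and Slc11a2 values was not tested.

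Beyond the members, a list of 43 further genes of haem and iron handling was followed, of which 30 were on the array and 23 were tested, on 25 probe sets. Of these probe sets 16 measured higher and 9 lower in knockout, with a median of 0.25 against 0.04 over all. The median was -0.11 without wild-type replicate 1. The sole call was the deleted gene Nfe2l2, which belongs to the list, so 0 of the other 24 probe sets passed.

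The second haem-breaking step and the haem-sensing repressor were named for being among the smallest p of this list, though both lay far from the threshold. Blvra, biliverdin reductase A, read 2131 and 2462 in the knockout arrays and 4640 and 2468 in the wild-type arrays (log2 difference -0.56, SE 0.45, adjusted p = 0.992). Its 2 knockout arrays lay below the wild-type arrays, as was so for 12.2% of all tested probe sets, but only narrowly. Wild-type replicate 1 alone was high. Bach1, the repressor that haem releases from DNA, read 8796 and 8071 in the knockout arrays and 3624 and 6521 in the wild-type arrays (log2 difference 0.79, SE 0.44, adjusted p = 0.992). Both knockout arrays lay above both wild-type arrays for Bach1, as was so for 14.3% of all tested probe sets, and its second probe set was too dim to test.

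Wild-type replicate 1 was the lowest array on 39.2% of all tested probe sets and on 10 of the 25 of the wider list, or 40%. The tested iron loading and ferritin turnover genes were among these. Ncoa4, the receptor that takes ferritin to lysosomes, read 6945 and 11647 in the knockout arrays, 2543 in wild-type replicate 1 and 11156 in the other wild-type array. Pcbp2, an RNA-binding protein that also delivers iron to ferritin, read 16107 and 26132 in the knockout arrays and 7481 and 19225 in the wild-type arrays. All 3 tested probe sets of this group, with Pcbp1, chosen after its values were seen, were lowest in wild-type replicate 1, and their differences were 0.76, 0.77 and 0.52, each with a limma adjusted p of 0.992. The ferritin chain probe sets were divided: the first Fth1 probe set was also lowest in that array, and the second and the probe set of Ftl1 or Ftl1-ps2 were highest there.

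Among carriers of iron and haem proteins, Lcn2, which binds bacterial iron chelators, had the smallest p after Nfe2l2. It read 19959 and 19019 in the knockout arrays and 13318 and 3715 in the wild-type arrays (log2 difference 1.47, SE 0.61, adjusted p = 0.992), and its second probe set gave 0.25. Ltf, the iron-binding lactoferrin, read 28755 and 39024 in the knockout arrays and 33781 and 8732 in the wild-type arrays (log2 difference 0.96, SE 0.65, adjusted p = 0.992). Hp, the haemoglobin scavenger haptoglobin, read 9762 and 9561 in the knockout arrays and 7896 and 5458 in the wild-type arrays (log2 difference 0.56, SE 0.41, adjusted p = 0.992).

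For the first Lcn2 probe set, Ltf and Hp alike, wild-type replicate 2 was the lowest array. On the second Lcn2 probe set wild-type replicate 1 was lowest, at 535.2, against 658.3 to 771.7 in the others. Lcn2 and Ltf are stored in neutrophil granules and also belong to the neutrophil marker list. In that list 15 of 16 tested probe sets measured higher in knockout, against 4004 of 7455 over all tested probe sets. The median difference was 1.001, against 0.04 over all. On 10 of the 16 both knockout arrays lay above both wild-type arrays, against 14.3% of all tested probe sets. In limma 6 had an unadjusted p under 0.05, against 1.74% over all, and 0 passed after adjustment. The summed intensity of all its probe sets, tested or not, was 542972 and 602609 in the knockout arrays, 722630 in wild-type replicate 1 and 183730 in the other wild-type array. It is weighted to the brightest probe sets and does not speak for the list as a whole. The part of neutrophil content in the Lcn2 and Ltf values was not tested.

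The promoters of the members were searched for the core of the antioxidant response element, the DNA motif bound by Nrf2 with a small Maf partner, spelled TGACNNNGC, on both strands. The RefSeq table of the GRCm38.p6 build held 11 windows for 6 of the 10 genes, Blvrb, Fth1, Ftl1, Hmox2, Slc11a1 and Tfrc, each from 250 bases before to 50 bases after a start site. The motif was in 0 of these 11 windows, and in 12.4% of all 32851 windows of that length. This says only that these letters are not in these windows. Response elements of Hmox1 and Fth1 are known to lie far upstream of the start site, outside windows of this kind.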

How the data were processed

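The authors deposited linear intensities from 1-colour arrays, 1 per probe set and array. Their software and scaling step are not stated in the labels or headers. The arrays' 2% trimmed means differed by 0.0204%, so the deposited intensities were not scaled further. Values below the pooled 25th percentile, 185, were raised to it and log2 was taken, which understates differences of dim genes. Of 66 control probe sets, 63 were left out and the 3 assigned to Tfrc were kept. The 7455 probe sets with a mean above the 40th percentile were tested with limma 3.58.1 in R 4.3.3 (lmFit, eBayes with intensity trend), two-sided, with Benjamini-Hochberg adjustment over all of them at 0.05. The procedure was tested on simulated data. An exact permutation of 2 against 2 arrays cannot give a p below 0.333 and was not used. Depth is not defined for arrays; their number limits the precision.

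Symbols came from the platform annotation, updated by gene identifier through the GRCm38.p6 gene table. Of 12425 probe sets 10836 had 1 symbol, 396 several and 1193 none, and 10820 of the first were matched. The members and lists were chosen with earlier results of these data known. Named were every member probe set, Nfe2l2, from the wider list those with an unadjusted p under 0.05 and the next 6 by p, up to 3 genes of a marker list, and the 3 profiles nearest to Hmox1; other genes are marked as chosen after their values were seen. Replicate numbers are not said to pair animals. Alternatives covered scaling, floor, filter, variance model, control and cross-hybridising probe sets, a replicate block, array weights and each array left out. Figures used matplotlib 3.10.9 (Python 3.11.15).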

Additional observations from a re-analysis of the deposited data

How the results depend on the processing

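The count of members called was 0 under all 15 alternatives. The count over all probe sets, 4, was 0 with no filter on dim probe sets, 2 without cross-hybridising probe sets, 7 with array weights, 36 with the replicate number as a block, and 3 to 13 with 1 array left out. The replicate block called 0 members, and no label gives that number as a pairing; deviations of same-numbered arrays correlated at 0.0390 across probe sets. The wider list's count, 1, was 0 with the 40th percentile floor, with no filter and with the 60th percentile filter, and 0 to 1 with 1 array left out.

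With 1 array left out, which leaves a lone array assumed to vary like the others, the log2 difference ranged from -0.57 to 2.19 for Hmox1, from -0.47 to 0.0922 for Hmox2, from 0.07 to 0.78 and from -0.52 to 0.37 for the first and second Fth1 probe sets, and from -0.37 to 0.26 for Slc11a1. It ranged from -0.12 to 0.38 and from -0.97 to 0.31 for the first and second Slc11a2 probe sets, from 0.05 to 0.44 for the bright Tfrc probe set and from -0.73 to 0.0600 for its 3' control. Quantile normalization turned the second Fth1 probe set to 0.0820. Of 186 values of single probe sets under alternatives, with those of Ftl1 or Ftl1-ps2, Nfe2l2 and Lcn2 included, 10 changed sign. These came from fits with 1 array left out, apart from that of the second Fth1 probe set with quantile normalization. Changes of filter, variance model, block, array weights or probe sets left out gave the same difference as the main fit. Those signs could not change, so 10 of 186 understates how the signs hung on single arrays. The cause was not tested.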

Other observations

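A pair of macrophage genes, named as those with the smallest p of their list, measured lower in knockout without passing. They go against the tally of that list, in which 11 of 17 tested probe sets measured higher and 6 lower, with a median of 0.07. Cd5l, a secreted protein of red pulp and other tissue macrophages, read 10401 and 7048 in the knockout arrays and 17294 and 14683 in the wild-type arrays (log2 difference -0.90, SE 0.42, limma adjusted p = 0.992). Marco, a scavenger receptor of marginal zone macrophages, read 9504 and 7391 in the knockout arrays and 19298 and 11035 in the wild-type arrays (log2 difference -0.80, SE 0.45, limma adjusted p = 0.992). For both, wild-type replicate 1 was the highest array, where Hmox1 and Adgre1 were lowest.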
